A study of Mus musculus with 8 samples.

Results

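Distal accessible chromatin regions that lie close together in dense clusters were described in mouse mammary epithelial cells profiled by FAIRE-seq. In FAIRE-seq, crosslinked chromatin is sheared and extracted with phenol and chloroform, so that DNA with little bound protein is recovered and sequenced, and stretches rich in such DNA are called as peaks. The 722 regions of the dense clusters were chosen by the calls themselves: the peaks of the 8 libraries were merged where they shared at least 1 bp, regions called in at least 2 libraries with a midpoint more than 2 kb from every annotated transcription start site (TSS) of chromosomes 1 to 19 were kept as distal regions, neighbouring distal regions were joined into chains up to a fixed gap, which lay between the widest gap kept inside a cluster (12.498 kb) and the narrowest gap beside one (12.577 kb), and chains of at least 5 regions were retained. The members were thus 722 regions in 126 chains (called clusters here), of 16135 distal regions and of 37230 merged regions in all. Of the other distal regions, 6350 lay in chains of 2 to 4 and 9063 had no other distal region within the gap (regions alone).

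The cells were EpH4, a mouse mammary gland epithelial line, and EpRas, its derivative transformed with an active H-Ras. Each line was left untreated or was given 1 ng/ml TGF-β3 for 8 days, with 2 libraries in each of the 4 groups. EpRas is 1 derivative line, and its medium held 4% serum against 10% for EpH4, so that Ras, serum and the history of the line cannot be told apart. The lists held between 10821 and 27337 peaks per library, the most in the first library of TGF-β-treated EpRas cells, and no read counts, so that the depth was unknown and a region not called may be open below the peak limit.

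Distal accessible regions include enhancers, short stretches of DNA at which transcription factors bind and from which they act on promoters at a distance. Genes with strong cell-type-specific expression often have many enhancers close together, and such groups have been described as super-enhancers or stretch enhancers from marks that were not measured here. AP1, the dimer of Fos and Jun proteins, lies downstream of Ras and MAPK signaling and binds many enhancers of epithelial and mesenchymal cells. TGF-β acts through the Smad proteins, which bind at enhancers together with other factors, AP1 among them.

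Sequences from 7 of the clusters named below show what these regions look like. Each is the central 200 bases of a member with the AP1 consensus, and capitals mark the consensus, TGACTCA or TGAGTCA. The first 4 regions were called in all 8 libraries, and the others were confined to 1 line, with a call in each of its 4 libraries and 0 calls in the other line. Sequences and positions are of GRCm38.p6 (mm10), plus strand.

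Dlgap1 cluster, open in every library, chr17:70720006-70720205: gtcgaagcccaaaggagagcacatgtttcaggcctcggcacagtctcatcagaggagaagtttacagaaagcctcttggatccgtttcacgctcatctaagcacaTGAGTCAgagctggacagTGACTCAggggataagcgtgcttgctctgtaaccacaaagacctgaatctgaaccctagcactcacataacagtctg
Dlgap1 cluster, open in every library, chr17:70746843-70747042: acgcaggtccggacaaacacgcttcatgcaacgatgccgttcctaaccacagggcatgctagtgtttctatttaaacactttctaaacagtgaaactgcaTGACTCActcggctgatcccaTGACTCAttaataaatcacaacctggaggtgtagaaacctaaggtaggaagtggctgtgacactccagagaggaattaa
Smad3 cluster, open in every library, chr9:63743912-63744111: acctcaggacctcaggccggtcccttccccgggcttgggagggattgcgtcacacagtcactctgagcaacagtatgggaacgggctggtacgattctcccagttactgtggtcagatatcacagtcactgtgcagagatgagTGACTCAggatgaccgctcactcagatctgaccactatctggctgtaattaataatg
Wincr1 cluster, open in every library, chr4:89061702-89061901: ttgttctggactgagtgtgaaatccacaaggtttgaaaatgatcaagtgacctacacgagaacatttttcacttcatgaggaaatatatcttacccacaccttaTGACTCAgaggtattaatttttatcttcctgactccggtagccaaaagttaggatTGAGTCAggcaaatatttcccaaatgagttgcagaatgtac
Ccser1 cluster, EpH4 libraries only, chr6:61225477-61225676: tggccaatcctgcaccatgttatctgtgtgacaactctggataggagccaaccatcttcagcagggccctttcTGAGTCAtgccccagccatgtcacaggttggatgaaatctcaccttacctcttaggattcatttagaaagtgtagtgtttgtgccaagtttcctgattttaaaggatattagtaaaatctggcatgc
1200007C13Rik cluster, EpH4 libraries only, chr2:167828467-167828666: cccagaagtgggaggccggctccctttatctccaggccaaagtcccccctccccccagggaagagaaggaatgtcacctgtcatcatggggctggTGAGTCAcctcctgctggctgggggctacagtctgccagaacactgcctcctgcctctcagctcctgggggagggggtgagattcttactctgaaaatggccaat
Cdkn2b cluster, EpRas libraries only, chr4:89485971-89486170: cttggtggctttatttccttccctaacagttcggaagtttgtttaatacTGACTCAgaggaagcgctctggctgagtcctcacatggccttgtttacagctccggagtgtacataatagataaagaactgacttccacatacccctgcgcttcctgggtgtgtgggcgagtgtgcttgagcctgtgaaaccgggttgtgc
Galnt15 cluster, EpRas libraries only, chr14:31946210-31946409: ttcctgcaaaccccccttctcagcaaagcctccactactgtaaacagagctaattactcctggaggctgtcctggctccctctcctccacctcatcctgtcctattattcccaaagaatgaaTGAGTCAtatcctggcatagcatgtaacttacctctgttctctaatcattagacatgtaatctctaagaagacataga

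Most clusters were near the lower limit of size. Of the 126 clusters, 68 held 5 regions, 39 held 6, 9 held 7, 6 held 8, 3 held 9 and 1 held 10. Just outside the limit there were 191 chains of 4 regions. The median span of a cluster was 25.7 kb (range 4.48 to 49.3 kb), of which called regions covered a median of 7.73%. Of the clusters, 73 overlapped a protein-coding gene and 53 did not. Protein-coding genes with provisional names (Gm with a number, or ending in Rik) were left out of this count and of the nearest genes given below. The members resembled other distal regions in annotation, with 50.7% in introns and 46.3% between genes, against 50.6% and 46.1% of the regions alone. Their median distance to the nearest TSS was 17.2 kb against 16.0 kb, and their mean GC content was 49.2% against 45.4%.

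Clusters were unevenly spread over the chromosomes. Chromosome 11 held 22 of them, and 10.6% of its 1222 distal regions were members. The share was 8.23% of 656 on chromosome 19 and 7.46% of 1086 on chromosome 4. It was 1.35% of 370 on chromosome 14 and 1.18% of 423 on chromosome 18, which held 1 cluster each. A fixed gap favours chains where distal regions lie close, and chromosome length was not taken into account.

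**Figure D1:**
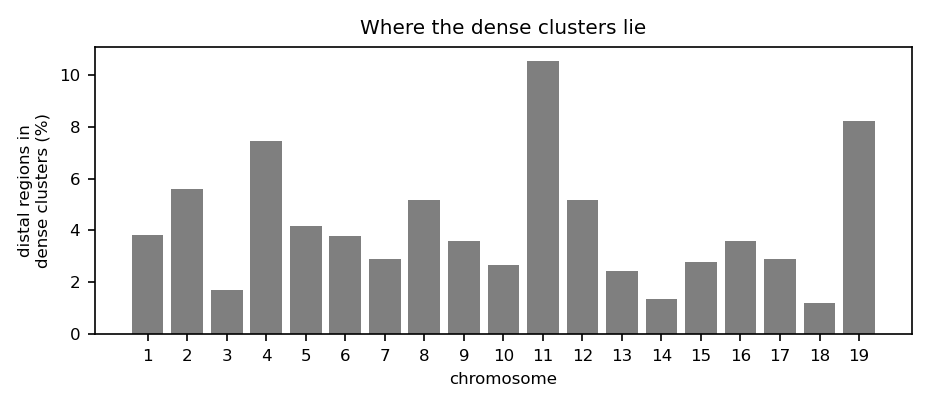
Bars give the percentage of distal regions of each mouse autosome that lay in dense clusters. Chromosome 11 is highest at 10.6% and chromosome 18 lowest at 1.18%.

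The cluster with most regions lay in introns of Dlgap1, which encodes a scaffold protein best known from synapses; the nearest protein-coding TSS was that of Tgif1, a repressor of TGF-β-responsive transcription, 125.8 kb from the middle of the cluster. Of its 10 regions (chr17:70707035-70748417), the EpH4 libraries called 8 and 6 without and 7 and 7 with TGF-β, and the EpRas libraries called 7 and 6 without and 10 and 9 with TGF-β. The regions of this cluster were called nearly as often in one line as in the other, and 5 of the 10 were called in every library. Among these were both Dlgap1 regions printed above, each with 2 copies of the AP1 consensus in the bases shown.

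The introns of Smad3, the receptor-activated Smad that transmits the TGF-β signal, held 9 regions (chr9:63698750-63748085). EpH4 libraries called 5, 6, 6 and 6 of them and EpRas libraries 6, 5, 7 and 6 (here and below in the order untreated 1 and 2, TGF-β 1 and 2). The numbers hardly differed between libraries, but the regions did: the first region of the cluster was called in all 4 EpH4 libraries and in 0 EpRas libraries. Its peaks were weak, with scores at a mean percentile of 14.2 in the calling libraries, against a median of 47.4 over the members. In this cluster 6 of the 9 regions had the AP1 consensus within 500 bp.

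A second cluster of 9 regions lay across Wincr1, a long noncoding RNA gene near Mtap (chr4:89041010-89089480). EpH4 libraries called 6, 6, 7 and 6 of its regions, and each of the 4 EpRas libraries called 8. All EpRas libraries lay above all EpH4 libraries, yet 4 of the 9 regions were called in every library. These numbers were not set against the library. Over all distal regions EpRas libraries also called more, a mean of 62.01% against 45.7% in EpH4 libraries. The numbers alone thus do not show a gain particular to this cluster. The third cluster of 9 lay at Ahnak, which encodes a large scaffold protein (chr19:9052956-9082792), with 6, 6, 7 and 5 regions called in EpH4 and 9, 6, 9 and 7 in EpRas cells.

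The 6 clusters of 8 regions lay at Tgm2 and Rprd1b, in Cuedc1, in Sfi1, between genes near Socs3, near Dmrta1 on chromosome 4 and near Pdia4 on chromosome 6. Tgm2 encodes transglutaminase 2, a crosslinker of matrix proteins, and Socs3 encodes a feedback inhibitor of cytokine signaling. At Tgm2 the EpH4 libraries called 7, 7, 8 and 5 regions and the EpRas libraries 7, 6, 7 and 6. Near Socs3 the numbers were 5, 6, 7 and 5 and then 6, 6, 6 and 5. The lines overlapped in both clusters. The cluster near Pdia4 was of a different kind, since at least 50% of the 32-base words of each of the 8 regions occurred more than 1 time in the genome, so that short reads cannot be placed there with certainty. Of the 722 members, 22 (3.05%) were repeated in this sense, against 2.40% of all distal regions, and they made up most of 3 clusters.

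Members of dense clusters were called in more libraries than regions alone. In all 8 libraries 151 members were called, 20.9% of them, against 15.2% of the regions in chains of 2 to 4 and 11.1% of the regions alone. Conversely, 20.1% of the members and 31.1% of the regions alone were called in exactly 2 libraries. The mean number of calling libraries was 4.91 for members and 4.11 for regions alone. Because the same calls chose the members, these shares are a description, and no test was run on them. Of the 126 clusters, 90 held at least 1 region called in every library, and in 1 cluster every region was.

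By library, the excess was smallest where the list was longest. Untreated EpH4 libraries called 51.7% and 53.6% of the members, TGF-β-treated EpH4 libraries 71.1% and 44.9%, untreated EpRas libraries 62.5% and 56.2%, and TGF-β-treated EpRas libraries 83.9% and 67.6%. The ratio to the share of regions alone called in the same library ran from 1.01 in the first TGF-β-treated EpRas library, which had the most peaks, to 1.36 in the first untreated EpH4 library. These 2 libraries called 83.2% and 38.0% of the regions alone, so that the ratio had little room to rise in the first of them.

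**Figure D2:**
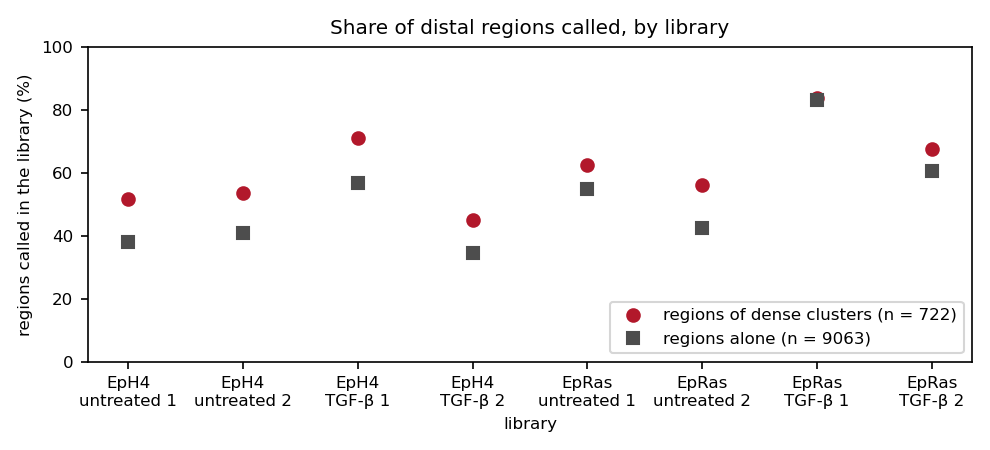
Circles give the percentage of the 722 regions of dense clusters called in each of the 8 libraries, and squares the same for the 9063 regions alone. The circles lie above the squares in every library, least so in the first TGF-β-treated EpRas library (83.9% and 83.2%).

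Neighbours in a cluster were not called together more than other neighbours. Calls agreed in a mean of 57.2% of the libraries between 596 pairs of adjacent members, in 57.6% between neighbours in chains of 2 to 4, and in 57.1% between neighbours more than 100 kb apart.

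The AP1 consensus, which the choice of regions did not use, was less frequent in the dense clusters than in the other distal regions. Within 500 bp around the midpoint it was found in 330 of the 722 members (45.7%), in 50.8% of the regions in chains of 2 to 4 and in 51.4% of the regions alone, on both strands. Windows of the same length placed between the regions of a cluster held it in 7.52% of 532 cases. Regions are not replicates of a condition, so these shares carry no test. Among regions called in all 8 libraries, 46.4% of the members and 56.9% of the regions alone had the consensus. In chains of 2 to 4 it was 61.1% of such regions, above the regions alone. The gap between members and regions alone was smaller among regions called in exactly 2 libraries, with 43.4% and 46.6%. There the regions in chains of 2 to 4 had 42.9%. Within every library the share was lower among the members it called (42.6% to 50.0%) than among the regions alone it called (51.7% to 57.8%), although these libraries share most regions. Without regions of repeated sequence the shares were 47.0% and 52.8%. A total of 116 clusters had at least 1 region with the consensus, and in 4 clusters every region had it.

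Other consensus sequences were about as frequent in members as in regions alone. GGAATG, bound by the TEAD factors of the Hippo pathway, was found in 37.5% of the members and 35.6% of the regions alone. TGTGGTT, bound by RUNX factors, was found in 17.5% and 18.7%. CCGGAAG, bound by ETS factors, was found in 3.32% and 2.9%. TTGCGCAA of the C/EBP factors occurred in 1 member and AACCGGTT of the Grainyhead-like factors in 3. Matches of different consensus sequences were counted each on its own, also where they overlapped, and a fixed consensus misses weaker sites.

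**Figure D3:**
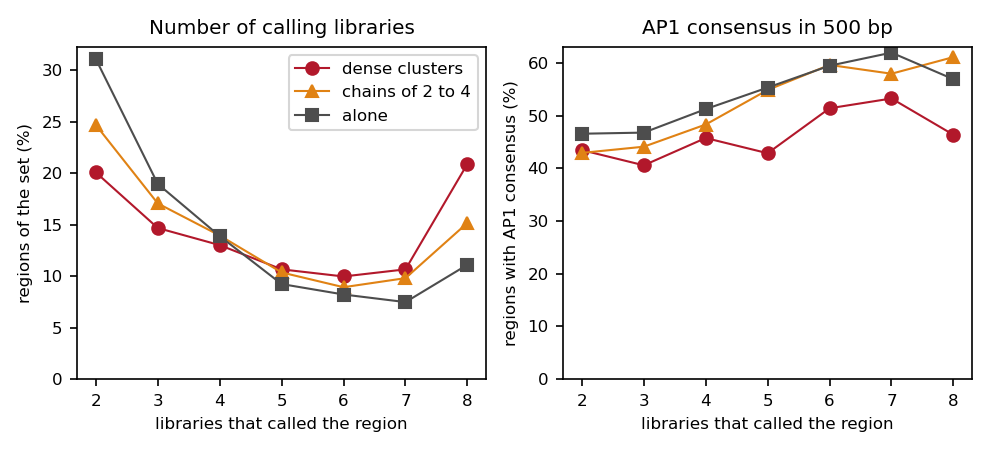
The left panel gives the percentage of each set of regions by the number of libraries that called them, and the right panel the percentage of those regions with the AP1 consensus within 500 bp, for dense clusters (circles), chains of 2 to 4 (triangles) and regions alone (squares). Dense clusters are highest at 8 libraries on the left (20.9%) and lowest there on the right (46.4%).

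To compare the lines, the number of called regions of each cluster was turned into the log2 odds of a call, relative to all distal regions of the same library, and tested with limma across all 853 chains of 3 or more regions. The rule that chose the regions did not use line or treatment, but it used the same calls that were tested here. Libraries with long lists weighed more in that choice. Without the first TGF-β-treated EpRas library the members numbered 500 instead of 722. A region could enter through the calls of 1 line alone. The p-values of this test do not allow for the choice, so they rank the clusters and are not independent evidence of a difference. The SE given with each difference is that of all chains of 1 size, not of the cluster itself. Clusters with lower odds in EpRas cells included those in Ccser1 and Lama5, at the noncoding gene 1200007C13Rik and nearest to Plk2 and Pdia4, and clusters with higher odds those nearest to Mtap, Cdkn2b, Galnt15, Ntmt1 and Irs1 (by the nearest protein-coding TSS, which can be far away). In all, 22 of the 126 clusters passed an adjusted p of 0.05, 8 with higher odds in EpRas and 14 with higher odds in EpH4. Over all 853 chains, 6.45% passed with higher odds in EpRas and 11.1% with higher odds in EpH4, so the dense clusters passed about as often as other chains. The median log2 odds difference was -0.26 over the clusters and -0.16 over all chains tested. Without setting the odds against the library, 11 clusters passed with higher odds in EpRas and 1 with higher odds in EpH4. In the numbers of called regions themselves, the 4 EpRas libraries lay above the 4 EpH4 libraries in 17 clusters and below them in 2, against 8.44% and 1.29% of all 853 chains.

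Most of these clusters did not differ from their surroundings past the threshold. When the odds were set against the other distal regions within 10 Mb, a comparison chosen after the data were seen, 4 of the 22 clusters still passed in the same direction, and 10 of the 126 (7.94%) passed in all, 4 higher in EpRas and 6 higher in EpH4, against 96 of all 853 chains (11.3%). The 4 were the clusters in Ccser1 and Lama5 and those near Pdia4 and Zpld1. Against the regions of the same chromosome, 13 of the 22 passed. With the calls of lists of equal length in the same chains, 7 of the 22 passed in the same direction, and 21 kept their sign. Of the 10 clusters named above for the line difference, those in Ccser1, at 1200007C13Rik, nearest to Plk2 and nearest to Mtap still passed, and the other 6 did not (limma adjusted p from 0.0825 to 0.217). Only the Ccser1 cluster passed under each of these 4 comparisons, those with the library, the chromosome and the regions within 10 Mb and that with equal lists.

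**Figure D4:**
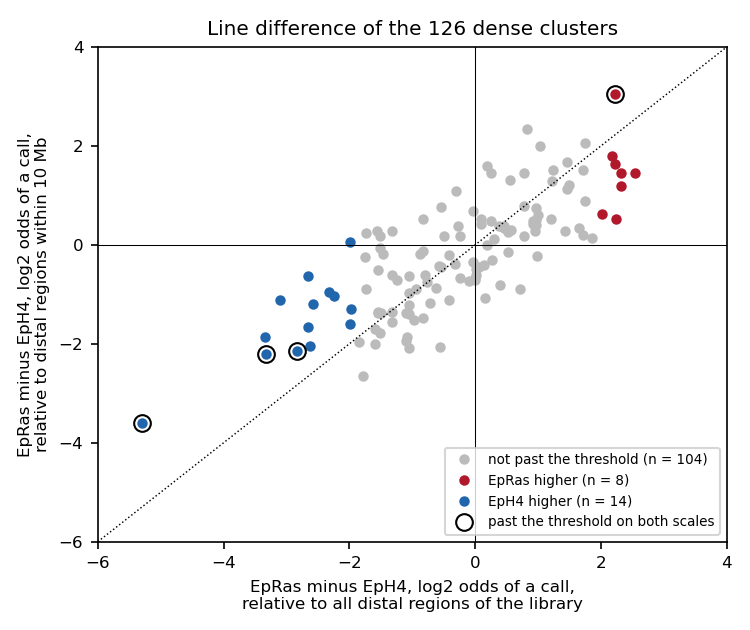
Each point is 1 of the 126 dense clusters, with the EpRas minus EpH4 difference in the log2 odds of a call relative to all distal regions of the library (horizontal) and relative to distal regions within 10 Mb (vertical). Of the 22 colored clusters that passed on the horizontal scale, the 4 ringed ones also passed on the vertical scale, and the dotted line marks equality.

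The cluster in introns of Ccser1, a gene of little known function, differed most (chr6:61206708-61242943). Of its 5 regions the EpH4 libraries called 4, 5, 5 and 4, and the EpRas libraries 2, 0, 3 and 0. Every EpH4 library thus lay above every EpRas library, with 4.50 ± 0.577 against 1.25 ± 1.5 regions (mean ± SD, n = 4). The log2 odds difference was -5.30 ± 0.72 (SE; limma adjusted p = 1.81e-10), and -3.60 relative to distal regions within 10 Mb (limma adjusted p = 0.000151). The third region, printed above with its AP1 consensus, was called in all 4 EpH4 libraries and in 0 EpRas libraries.

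The other clusters with lower odds in EpRas cells changed less. At 1200007C13Rik, a long noncoding RNA gene 113.4 kb from the nearest protein-coding TSS, that of Ptpn1 (chr2:167806025-167831384), EpH4 libraries called 4, 3, 5 and 3 of 5 regions and EpRas libraries 1, 1, 3 and 2 (log2 odds difference -3.34 ± 0.72, limma adjusted p = 0.000269). The lines touched at 3 regions. A separate dense cluster within Ptpn1 itself, a tyrosine phosphatase gene (chr2:167940069-167964159; looked up after its values were seen), had 3, 4, 5 and 4 against 3, 4, 4 and 4 of 5 regions called and did not pass (-1.52 ± 0.72, limma adjusted p = 0.121). In the cluster whose nearest gene was Plk2, which encodes a polo-like kinase, 337.4 kb away (chr13:110720351-110744620), the numbers were 4, 4, 5 and 4 against 2, 2, 3 and 3 of 5, without overlap (-3.10 ± 0.72, limma adjusted p = 0.000952), and 1 of these regions was of repeated sequence. Relative to distal regions within 10 Mb neither the 1200007C13Rik nor the Plk2 cluster passed (limma adjusted p = 0.0829 and 0.367). In Lama5, which encodes a laminin chain of the epithelial basement membrane (chr2:180216022-180228919), the numbers were 5, 3, 4 and 2 against 2, 2, 3 and 1 of 5 (-2.83 ± 0.72, limma adjusted p = 0.00257), and they overlapped. The repeated cluster near Pdia4 had 2, 4, 6 and 2 against 0, 4, 1 and 0 of 8 regions called, also with overlap. Its log2 odds difference was -3.33 ± 0.68 (limma adjusted p = 8.57e-05). That SE and p rest on a spread estimated over all chains. The cluster's own counts were 3.5 ± 1.91 in EpH4 and 1.25 ± 1.89 in EpRas libraries (mean ± SD, n = 4).

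The end of chromosome 2 held several of these clusters. From the Tgm2 cluster onward there were 9 clusters, of which 7 had lower odds in EpRas and 4 passed. The start of this stretch was not fixed in advance but set at a cluster of this same set, so its values are a description. In that stretch a mean of 60.96% of the 251 distal regions were called in EpH4 libraries and 55.0% in EpRas libraries, whereas before it 31.6% and 66.9% of 931 regions were. Over chromosomes 1 to 19 the means were 45.7% and 62.01%. On chromosome 6, with the Ccser1 and Pdia4 clusters, they were 56.2% and 51.7%.

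The clusters with higher odds in EpRas cells included a pair on chromosome 4, on either side of Mtap and the Cdkn2a and Cdkn2b genes, whose products restrain the cell cycle. In the first, within the noncoding AL805899.2 gene (chr4:88998302-89023162), EpH4 libraries called 1, 1, 3 and 1 of 5 regions and EpRas libraries 4, 4, 5 and 5 (log2 odds difference 2.54 ± 0.72, limma adjusted p = 0.00645). In the second, nearest to Cdkn2b (chr4:89466848-89487380), the numbers were 1, 1, 1 and 2 against 4, 4, 5 and 4 of 5 (2.32 ± 0.72, limma adjusted p = 0.0147). The lines did not overlap in either cluster, and both held 2 regions called in all EpRas and in 0 EpH4 libraries, the only clusters with more than 1 region that separated the lines. The second lost its call without the first TGF-β-treated EpH4 library or without the second untreated EpRas library (limma adjusted p = 0.0874 and 0.0600), and relative to distal regions within 10 Mb neither passed (limma adjusted p = 0.200 and 0.317).

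**Figure D5:**
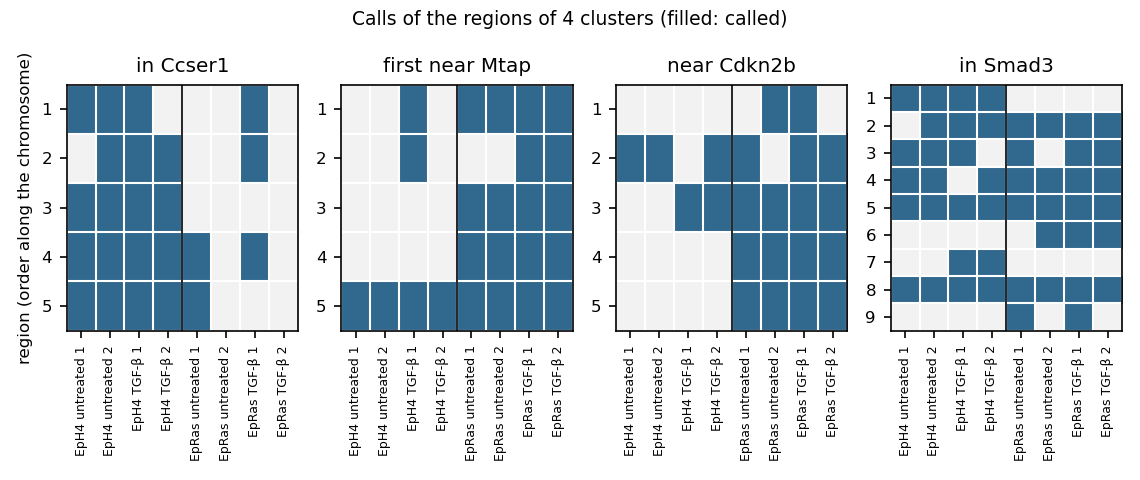
Rows are the regions of 4 clusters in their order along the chromosome and columns the 8 libraries, with filled squares for regions called and a line between EpH4 and EpRas. The Ccser1 cluster has most calls in EpH4 and the clusters near Mtap and Cdkn2b in EpRas, while the Smad3 cluster has calls in both.

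Both clusters belonged to a neighbourhood of 5 dense clusters with 32 regions within 1 Mb (chr4:88530340-89530530), the most of any in the genome when clusters up to 500 kb apart were grouped. EpH4 libraries called 15, 12, 19 and 15 of the 32 regions and EpRas libraries 27, 24, 29 and 26. All EpRas libraries lay above all EpH4 libraries, with 82.8% against 47.7% of the regions called on average. The 28 other distal regions of the same stretch were called in 73.2% and 44.6% on average.

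The remaining 3 clusters named for higher odds in EpRas cells were outside protein-coding genes. Near Galnt15, which encodes an enzyme of O-glycosylation (chr14:31946181-31963918), EpH4 libraries called 1, 1, 1 and 0 of 5 regions and EpRas libraries 4, 3, 4 and 4 (2.32 ± 0.72, limma adjusted p = 0.0147). Near Ntmt1 the numbers were 2, 1, 2 and 0 against 5, 3, 4 and 4 of 5 (2.23 ± 0.72, limma adjusted p = 0.0183). The cluster whose nearest gene was Irs1, an adaptor of insulin signaling, lay 548.1 kb from its TSS, with 1 of 6 regions called in each EpH4 library and 5, 3, 6 and 3 in EpRas libraries (2.22 ± 0.70, limma adjusted p = 0.0161). The lines did not overlap in any of the 3. Each lost its call without at least 1 library: near Galnt15 without the first untreated or the second TGF-β-treated EpRas library (limma adjusted p = 0.05003 and 0.0740), near Ntmt1 without any of 4 libraries and near Irs1 without any of 3 (highest limma adjusted p = 0.143 and 0.0821).

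Single regions that separated the lines were rare in dense clusters, as they were among all distal regions (4.02% and 4.86%). Called in all EpRas and in 0 EpH4 libraries were 19 members (2.63%), against 3.5% of all distal regions. The reverse held for 10 members (1.39%), against 1.36% of all distal regions. These 29 regions were spread over 27 clusters, and no cluster held regions of both directions. Only 2 clusters held more than 1 such region, so these counts cannot show whether the regions of a cluster change together.

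TGF-β did not change any cluster past the threshold. By limma, 0 of the 126 clusters and 0% of the 853 chains passed an adjusted p of 0.05, and 12 of the 126 and 103 of the 853 had an unadjusted p under 0.05. Those closest to it lay at Chd3, Ccn4 and Mical2 and near Zpld1 and Spty2d1, with positive differences, and at Cfap43 and Lama5 and near Tm4sf20, Atp6v1g3 and Polr3k, with negative ones. At Chd3, a chromatin remodeler gene, untreated libraries called 1, 2, 3 and 3 of 5 regions and TGF-β-treated libraries 5, 3, 5 and 5 (EpH4 before EpRas; log2 odds difference 2.11 ± 0.72, limma adjusted p = 0.106). At Ccn4, a matricellular gene also known as Wisp1, the numbers were 2, 2, 3 and 3 against 6, 2, 6 and 5 of 6 (1.65 ± 0.70, limma adjusted p = 0.268). Near Tm4sf20 they were 4, 2, 4 and 4 against 2, 1, 4 and 2 of 5 (-2.19 ± 0.72, limma adjusted p = 0.106). The treatments overlapped at each of these clusters. The difference between the TGF-β effects in the lines passed in 0 of the 126 clusters and in 0.234% of all chains (limma; 10 clusters at an unadjusted p under 0.05).

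Regions that separated the treatments were also rare. Called in all TGF-β-treated and in 0 untreated libraries were 2 members (0.277%), against 0.607% of all distal regions, 1 at Chd3 and 1 near Spty2d1. The reverse held for 0 members and for 0.0248% of all distal regions.

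To ask whether open chromatin was more or less clustered in one group, the clusters were rebuilt for each library from the other 7, and the share of its distal peaks that lay in them was taken. The rebuilt clusters held 500 regions for the first TGF-β-treated EpRas library and 675 for the second TGF-β-treated EpH4 library. The shares were thus taken against sets of unlike size, the smallest for the longest list. The share was 4.54% and 4.32% in untreated EpH4, 3.64% and 4.58% in TGF-β-treated EpH4, 4.08% and 4.78% in untreated EpRas and 2.28% and 3.46% in TGF-β-treated EpRas libraries. EpRas libraries had 3.65 ± 1.06% and EpH4 libraries 4.27 ± 0.437% (SD, n = 4; exact permutation test, two-sided, p = 0.371). TGF-β-treated libraries had 3.49 ± 0.945% and untreated libraries 4.43 ± 0.299% (exact permutation test, p = 0.114). The test with 70 assignments cannot give a p under 0.0286, and without the second TGF-β-treated EpH4 library the p for TGF-β was 0.0286 (exact permutation test). The TGF-β effect was -1.57 percentage points in EpRas and -0.32 in EpH4. Their difference was -1.24 (permutation test of line labels within each treatment, 36 assignments, p = 0.278). It came to -0.0093 without the first TGF-β-treated EpRas library. That permutation is exact only where the lines do not differ in share at all, so its p is not an exact test of the difference. Against the clusters of all 8 libraries, the line difference was -0.58 points, the TGF-β difference -0.57 and the difference of effects -0.60. Each library had helped to choose those clusters, so these values are a description only. The library with the longest list had the lowest share, and when every list was cut to equal length the differences turned to 0.24 points higher in EpRas and 0.062 points higher with TGF-β.

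Genes of epithelial and mesenchymal cells were looked up in 12 lists by whether the gene with 20 kb on each side touched a dense cluster, which was so for 160 of all 20780 protein-coding genes (0.770%). Among mesenchymal markers and matrix genes, Col1a1 and Tnc did. Among epithelial junction and splicing genes it was 2 of 18, the claudin genes Cldn3 and Cldn4, which share a cluster. Among TGF-β receptors, Smads and feedback genes it was 2 of 21, Smad3 and Pmepa1. Among actin, focal adhesion and Hippo genes it was 2 of 21, Itga3 and Wwtr1, and among basal epithelial genes 1 of 11, Itgb4. The lists of luminal identity factors (18 genes), AP1 factors (10), ETS factors (10), Ras and MAPK genes (20), neuronal markers (16), blood markers (15) and muscle and liver markers (16) had 0. The median gene length ran from 7.88 kb (AP1 factors) to 77.4 kb (ETS factors) among the lists and was 17.6 kb for all genes; its part in these counts was not tested.

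Among the clusters at these genes, the one at Pmepa1, which encodes a feedback inhibitor of Smad signaling, differed between the lines. EpH4 libraries called 3, 5, 4 and 5 of its 5 regions and EpRas libraries 3, 1, 5 and 3 (log2 odds difference -2.58 ± 0.72, limma adjusted p = 0.00531). The lines overlapped, and the cluster did not pass relative to distal regions within 10 Mb (limma adjusted p = 0.322). At Cldn3 and Cldn4, tight junction genes, EpH4 libraries called 5, 5, 5 and 3 of 6 regions and EpRas libraries 2, 2, 4 and 6 (-1.74 ± 0.70, limma adjusted p = 0.0631). Relative to distal regions within 10 Mb the difference turned to 0.23 (limma adjusted p = 0.863). At Wwtr1, which encodes the Hippo effector TAZ, the numbers were 1, 2, 4 and 3 against 4, 3, 5 and 5 of 6 (0.57 ± 0.70, limma adjusted p = 0.585).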

How the data were processed

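FAIRE-seq had been run on EpH4 and EpRas cells, 2 libraries in each of 4 groups, named and numbered as in the labels. According to the study's methods, reads from an Ion Proton were trimmed to 36 bp, mapped to mm10 with Bowtie2, and peaks were called with MACS2 2.0.9. The authors deposited 1 peak list per library, and the lists differed in length in every group. The deposited score of each peak, given by the authors' peak caller, has no stated scale and was used only for ranking. The lists held no counts, so depth and intervals from it were unknown.

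Genes and 77198 TSSs were from the GENCODE vM21 basic set. The log2 odds of a call were computed per chain with 0.5 added to the called and uncalled regions, minus the library's log2 odds over all distal regions, and fitted with limma 3.58.1 (line and treatment terms; Benjamini-Hochberg over 853 chains). The fit gave all chains of 1 size the same spread, estimated over all chains, so p-values do not reflect a cluster's own variation. Regions per cluster are few and odds near 0 or all regions are unstable. Shares were compared by exact permutation over libraries. Named clusters were the 10 with most regions, the 5 with the largest differences in each direction and contrast past the threshold (otherwise those of lowest p), and up to 4 genes per list. Members, lists and rules were chosen with earlier results of these data known. Replicates are 2 biological replicates by the study's methods. Sequences came from GRCm38.p6. Alternatives were lists of equal length (the peaks of highest score, as many as in the shortest list), peaks at or above the median score of all lists, other limits, other centrings and left-out libraries. The result at 1 gene of the lists is not reported here.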

Additional observations from a re-analysis of the deposited data

Results flagged for a closer look

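In 17 of 58 groups of 4 libraries examined (the 2 lines at each of 28 named clusters, and the share of distal peaks in clusters), 1 library stood apart by Dixon's criterion, where chance gives about 1 in 20. In all 17 the other 3 libraries had the same whole number of called regions, so that any step away from it was marked. Among EpH4 cells, the first untreated library called 5 regions at Smad3. The first TGF-β-treated EpH4 library called 7 at Wincr1, 7 at Cuedc1, 6 at Ccn4, 3 in the first cluster near Mtap and 5 near Plk2. The second TGF-β-treated EpH4 library called 2 near Cdkn2b, 4 at Cfap43 and 0 near Galnt15. Among EpRas cells, the second untreated library called 6 near Polr3k, 5 at Cfap43 and 3 near Galnt15. The first TGF-β-treated EpRas library called 5 near Cdkn2b. The second called 6 at Cuedc1, 5 near Socs3, 2 near Tm4sf20 and 5 near Atp6v1g3. The first TGF-β-treated EpH4 library, the longest list of its line, was the high one at 5 clusters.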

How the results depend on the processing

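The peak lists carry calls only, so the limit at which a peak was called sets every value, and the longest list weighs most. With lists of equal length, the stricter score limit, gaps of 6 and 25 kb, and chains of at least 4 and 8 regions, the members numbered 255, 129, 88, 2463, 1486 and 85, in 45, 23, 17, 390, 317 and 10 clusters. Clusters that differed between the lines then numbered 9, 1, 2, 90, 65 and 1, and 12 without centring and 10 centred within 10 Mb, against 22. Regions that separated the lines numbered 8, 5, 3, 115, 61 and 3, against 29. Those that separated the treatments, 2 in the main comparison, numbered 0, 0, 13, 4 and 0 (stricter score, 6 kb, 25 kb, at least 4, at least 8), and 1 over 5 kb from a TSS. The share of members called in all libraries was 15.7%, 11.6%, 28.2% and 15.7% with equal lists, the stricter score, at least 8 regions and 50% of a region covered. For regions alone it was 5.44%, 12.4% and 9.02% with the stricter score, 6 kb and 50% covered. The AP1 share of members was 36.4% at 6 kb and 40.4% in 200 bp. For regions alone it was 55.1%, 58.5% and 52.8% with equal lists, the stricter score and without repeated sequence, 45.4% in 200 bp and 50.2% in the region itself. The share of distal peaks in clusters reversed with equal lists for the line (0.24 points) and for TGF-β (0.062 points), and the difference of TGF-β effects reversed for chains of at least 8 (0.065 points). The cause of these shifts was not tested, except that fewer peaks or regions entered under stricter limits.

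When each library was left out in turn, the members ranged from 500 to 675 and the clusters from 89 to 119. Line calls ranged from 11 to 19, lowest without the first untreated EpRas library (11) and then the first TGF-β-treated EpH4 library (12), the second TGF-β-treated EpRas library (13), and the second TGF-β-treated EpH4 and first TGF-β-treated EpRas libraries (14 each). Separating regions ranged from 21 to 44 for the lines, highest without the second untreated EpRas library, and from 4 to 11 for the treatments, highest without the second TGF-β-treated EpH4 library. Shares called in all remaining libraries ranged from 22.3% to 24.9% for members and 12.54% to 14.2% for regions alone, and AP1 shares from 43.8% to 47.6% and 50.8% to 52.6%. Differences in the share of distal peaks ranged from -1.22 to -0.38 points for the line, from -1.29 to -0.53 for TGF-β and from -1.75 to -0.0093 for the difference of effects.

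The replicate numbers did not pair the libraries: deviations of equally numbered libraries from their groups correlated between -0.061 and 0.047 over 853 chains. With a replicate block, 22 clusters differed between the lines and 0 between the treatments, and the exact sign-change test of the share gave p = 0.375 for the line and 0.25 for TGF-β. For the 10 clusters named in the line contrast, 123 of 160 values under alternatives kept both direction and call, 37 kept the direction without the call, and 0 reversed. The TGF-β count stayed at 0 under every alternative run. With gaps of 6 kb and the stricter score, too few chain sizes were left to fit the spread by size, and 1 spread was used for all. The repeated-sequence and 10 Mb alternatives were chosen after the data were seen.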
